A study of Mus musculus with 3 samples.

Results

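The transcripts of 7 genes of the NF-κB system, namely the subunit genes Nfkb1, Nfkb2 and Rela and the IκB family genes Nfkbia, Nfkbib, Nfkbiz and Bcl3, were followed on arrays of brown adipocytes stimulated with isoproterenol (ISO), an agonist of all β-adrenergic receptors. The 7 genes were listed with earlier results of these data known, so counts over them are a description only. Every probe set whose annotated symbol was exactly 1 of the 7 was taken, whatever its signal. Of the 7 genes, 6 had a named probe set, and these 6 had 14 probe sets among the 45101 of the array. Nfkb1, which encodes the p105 precursor of p50, had no named probe set and was not analysed here. The cells were iBATs, a line of brown preadipocytes immortalized with SV40 large T antigen after isolation from interscapular brown fat of C57BL/6 mice. All 3 samples were at day 8 of differentiation and carried the same genotype. By the methods of the study, insulin and indomethacin were given for the first 2 days, and insulin without indomethacin followed. They differed in the time of ISO, which was 0 h (unstimulated), 1 h or 2 h, at 1 μM by the figure legends of the study. There was 1 array per time point and no unstimulated array at 1 or 2 h, so ISO and time in culture cannot be told apart.

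NF-κB transcription factors are dimers of Rel-family subunits. Classical IκB proteins such as IκBα hold them in the cytoplasm until the IKK kinase complex marks the IκB for destruction, and the freed dimers then activate genes that include the gene for IκBα itself. A second class of IκB proteins, to which IκBζ (Nfkbiz) and BCL3 belong, is nuclear and acts on dimers of p50 or p52 as transcriptional cofactors. In most cells these nuclear proteins are scarce at rest and are made after a stimulus. Messenger RNA is what was measured here, and neither IκB degradation nor the nuclear entry of NF-κB is visible in it.

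Of the member genes, the nuclear IκB genes Nfkbiz and Bcl3 gained signal with ISO, while Rela and Nfkbia stayed within 2^0.8-fold of 0 h at both times. The unit is the MAS5 signal, a linear intensity per probe set, which the authors scaled to a trimmed mean of 100 on every array. A probe set was kept if any of its 3 signals reached 100, and among the kept probe sets of a gene the brightest on average stood for the gene. This left 4 member genes with 9 kept probe sets, out of 6896 genes read. The threshold for calling a gene was a change of 2^0.8, or 1.741-fold, in either direction, which is a size and not a test, because 1 array per time point gives no replicate error and no p-value. At 1 h of ISO 1 of the 4 read members was called higher (Bcl3), where 1.58% of all read genes were, and at 2 h 2 of 4 were (Bcl3 and Nfkbiz), where 2.73% were. No read member was called lower at either time, where 0.218% and 0.812% of all read genes were. The median log2 ratio of the 4 was 0.39 at 1 h and 0.92 at 2 h, beside -0.02 and -0.07 over all read genes. That median falls between level and risen genes and describes none of them. At 2 h the ratios were 0.11 for Rela, -0.13 for Nfkbia, 1.73 for Nfkbiz and 1.92 for Bcl3. A gene dim at 0 h is read only if it brightens to 100 or more, which favours rises among such genes. Of 273 read genes with a 0 h signal below 100, 19.4% were called higher at 1 h and 28.9% at 2 h. Bcl3 is among these 273, and its place in the counts and in the median of the members rests on its rise past 100. In whole cultures, a change in RNA per cell and a change in the share of cells that make it cannot be told apart.

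**Figure D1:**
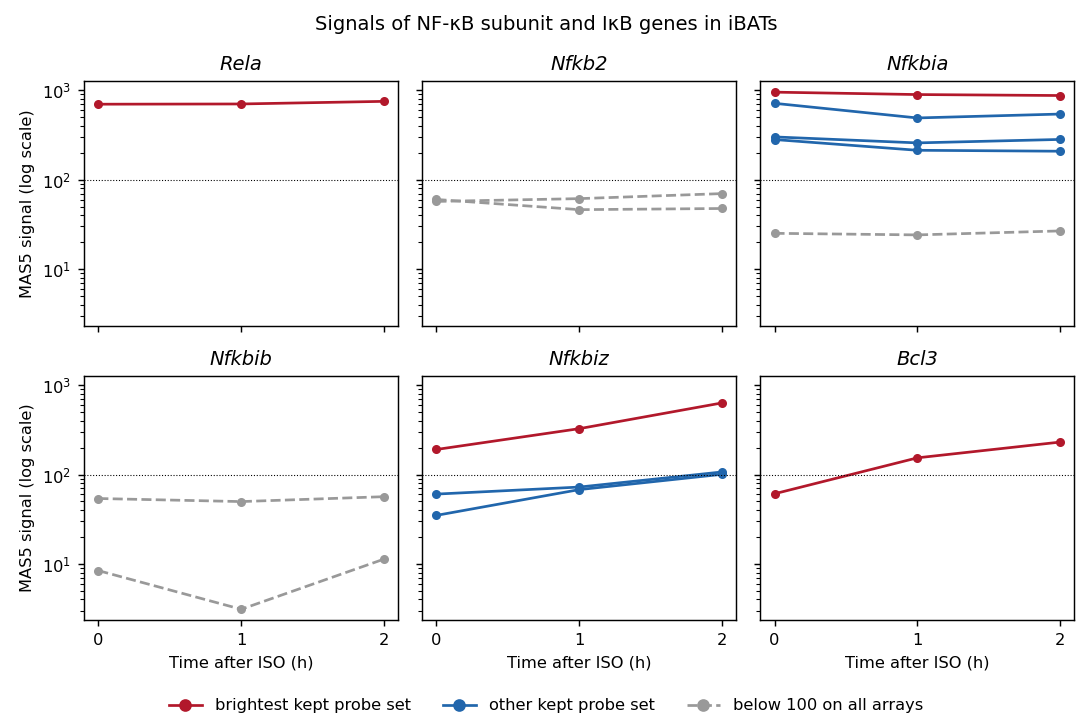
Course of the MAS5 signal (log scale, vertical) over the hours of ISO (horizontal) for the 14 probe sets of 6 member genes, 1 point per array and no error bars. The dotted line is the signal of 100 used to keep probe sets; Bcl3 climbs across it from 60.9 to 230.9, the brightest Nfkbiz probe set climbs from 190.8 to 633.9, and Rela and the brightest Nfkbia probe set run nearly level, while the Nfkbia probe set next in signal drops from 716.7 to 491.4 in the first hour.

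The cultures held the RNA of adipocytes, while the listed markers of blood-derived and vessel cells had signals below 100. Fabp4 and Adipoq, a fatty acid-binding protein and a hormone of adipocytes, had signals of 7490.0 and 4986.4 at 0 h. Ucp1 had signals of 1485.7, 3673.2 and 4166.1 at 0, 1 and 2 h. It was the 1 of 4 read adipocyte markers called higher, at both times, where 1.58% and 2.73% of all read genes were. None of 7 macrophage and leukocyte marker genes reached 100 on any array. Their signals summed to 132.8 before ISO, 130.9 after 1 h and 208.2 after 2 h. Cd68 had signals of 58.9, 54.5 and 81.2 on these arrays, and Cd14 had 34.6, 41.8 and 93.2. Adgre1 was at most at 9.8 and Ptprc at most at 0.9. The rise of that sum fell in the second hour, and its part in the 2 h values of Bcl3 and Nfkbiz was not tested. The 4 endothelial markers had signals of at most 9.3. For 18 probe sets of bacterial and phage control transcripts the median log2 ratio to 0 h was 0.07 (1 h) and -0.06 (2 h).

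Bcl3 encodes an atypical IκB protein that sits on p50 or p52 homodimers in the nucleus and can turn them into activators. Its single probe set (1418133_at) read 60.9 before ISO, 153.8 after 1 h and 230.9 after 2 h. The signal was thus lowest before ISO and highest at 2 h, and the first hour brought the larger step. The ratio to 0 h was 2.53-fold at 1 h (log2 ratio 1.34) and 3.79-fold at 2 h (log2 ratio 1.92), and the step from 1 to 2 h was a log2 ratio of 0.59. The robust spread of log2 ratios (a median absolute deviation scaled to match an SD) over read genes of like signal was 0.22 at 1 h and 0.26 at 2 h. That spread contains real change as well as noise. Genes of like signal were chosen by the mean signal over all arrays, 148.5 for Bcl3, which its own rise lifts. Among the dimmest read genes the spread was larger, at 0.37 (1 h) and 0.43 (2 h). The ratios of Bcl3 exceeded these spreads too. As Bcl3 was read only because it rose past 100, this comparison is not a test of its rise. The size of the rise depends on the dim 0 h value. With signals below 100 set to 100 the log2 ratio is 0.62 at 1 h, which is below the threshold, and 1.21 at 2 h, which is above it. A single probe set gives no second reading of this gene.

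The promoter window of Bcl3 is shown because the gene was called higher at both times, and that of Nfkbia because it is the textbook NF-κB feedback gene and was not called. Each window runs from 250 bases before to 50 bases after the gene start, 5′ to 3′ on the gene's strand, in the RefSeq sequence of mouse build GRCm38.p6. Bcl3 lies at chr7:19822706-19823005 and Nfkbia at chr12:55492598-55492897, both on the minus strand. Capitals mark matches, on either strand, to the κB consensus, taken here as GGG, a purine, any pair of bases, a pair of pyrimidines and CC. This form of the consensus was written down with the windows already in view.
Bcl3: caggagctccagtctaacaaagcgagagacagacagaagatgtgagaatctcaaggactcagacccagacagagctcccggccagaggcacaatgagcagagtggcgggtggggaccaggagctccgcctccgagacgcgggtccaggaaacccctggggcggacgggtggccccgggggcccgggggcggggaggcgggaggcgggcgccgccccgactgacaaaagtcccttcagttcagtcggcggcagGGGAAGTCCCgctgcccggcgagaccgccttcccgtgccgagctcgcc
Nfkbia: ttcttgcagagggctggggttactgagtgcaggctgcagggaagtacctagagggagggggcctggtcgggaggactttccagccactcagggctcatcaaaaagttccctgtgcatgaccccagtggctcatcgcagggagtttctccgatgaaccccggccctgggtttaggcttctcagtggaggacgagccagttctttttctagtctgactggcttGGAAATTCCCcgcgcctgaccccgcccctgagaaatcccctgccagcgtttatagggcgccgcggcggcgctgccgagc
The Bcl3 window held 1 κB match, GGGAAGTCCC, which begins 2 bases past the gene start and matches on both strands. The Nfkbia window held 1 match, GGAAATTCCC, which begins 29 bases before the start. Neither window held the cyclic AMP response element TGACGTCA or its shorter core TGACG, on either strand.

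Windows were on file for 5 of the 7 members, with 3 alternative starts for Nfkb2 and none for Nfkb1 and Nfkbiz. A κB match was present for Bcl3, Nfkbia and Nfkb2 and not for Rela or Nfkbib, that is for 3 of 5 genes, beside 9.55% of 27025 genes with a window. A stricter form, with A or T at base 6, was met by the same 3 genes and by 5.14% of all genes. As the letters were chosen after the windows had been seen, these counts only describe the windows. In the windows of Nfkb2 the matches included GGGAATTCCC, which begins 39 bases before the most upstream start, and GGGACTTTCC, which begins 10 bases past the middle start. The core TGACG was found for Nfkb2 and Nfkbib, beside 23.0% of genes, and TGACGTCA for none of the 5, beside 2.03%. In this set κB matches were present in a gene called higher (Bcl3), in a gene that was not called (Nfkbia) and in a gene too dim to be read (Nfkb2). A match is a run of letters and not evidence that a factor binds there.

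Nfkbiz encodes IκBζ, the nuclear IκB protein that is needed for a late wave of cytokine genes, Il6 among them, in stimulated immune cells. Its brightest probe set (1417483_at) read 190.8 before ISO, 326.3 after 1 h and 633.9 after 2 h. All 3 signals were above 100, and the 2 steps were of similar size on the log scale, with log2 ratios of 0.77 and 0.96. The ratio to 0 h was 1.71-fold at 1 h, just short of 1.741-fold, and 3.32-fold at 2 h (log2 ratio 1.73). For genes of like signal the spread was 0.15 at 1 h and 0.21 at 2 h. For the second hour alone Nfkbiz was the 1 member of the 4 called higher, where 0.667% of all read genes were, and none was called lower, where 0.319% were. That call rests on the brightest probe set, as the other 2 kept probe sets had log2 ratios of 0.56 and 0.57 for this step, and it ends with the median over the 3, at 0.57. By the size of its ratio of 2 h over 1 h it stood at rank 32 of 6896 genes, against rank 111 for 1 h over 0 h. The miss at 1 h is narrow: with the 3 arrays scaled to the same median, which moves the median of all read genes from -0.02 to 0.08, Nfkbiz is at 0.87 and passes.

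The other 2 probe sets of Nfkbiz moved in the same order at lower signal. Probe set 1448728_a_at had signals of 60.4, 72.4 and 106.9 at 0, 1 and 2 h, and 1457404_at had signals of 34.9, 67.8 and 100.6. Both were highest at 2 h and were kept through that array alone, with 2 h signals just inside the limit of 100. Their log2 ratios at 1 h were 0.26 and 0.96, and at 2 h they were 0.82 and 1.53, the smaller one barely past the threshold. With signals below 100 set to 100 they are 0.10 and 0.01 at 2 h, so the size of the rise rests on the brightest probe set. A signal above 0 h on all kept probe sets was found for 21.4% of 746 genes with 3 or more kept probe sets at 1 h and for 23.2% at 2 h. The 3 log2 ratios of Nfkbiz spanned 0.70 at 1 h and 0.91 at 2 h, wider than the median span of 0.21 and 0.29 over 500 genes with 3 kept probe sets. These spans also lay in the top decile of those genes, which starts at 0.5 and 0.67.

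**Figure D2:**
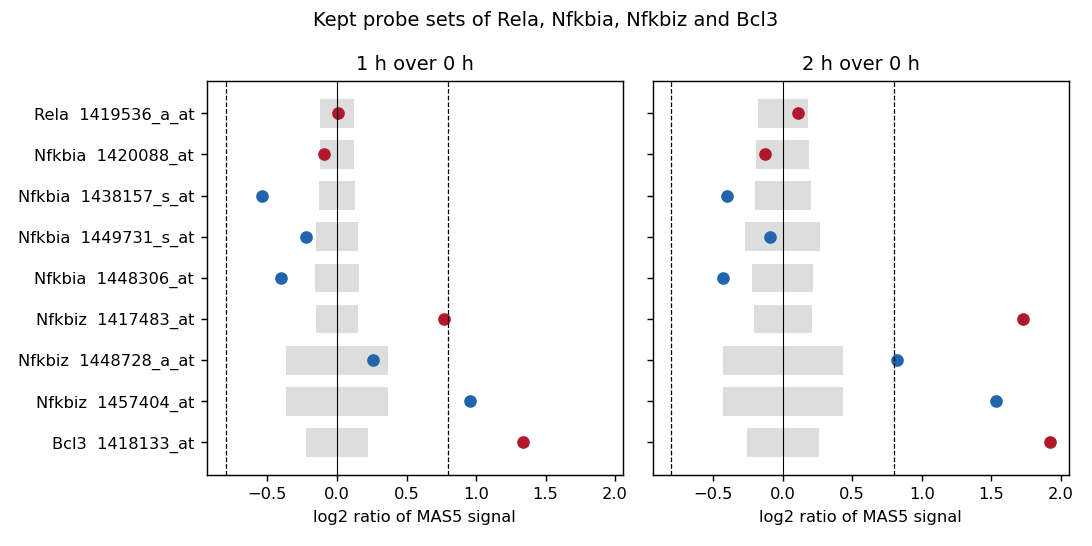
Log2 ratio of MAS5 signal to 0 h (horizontal axis) for the 9 kept probe sets (rows), at 1 h (left) and 2 h (right) of ISO, 1 array per time point. Red marks the brightest kept probe set of a gene and blue the others, grey bars span plus and minus the robust spread of read genes of like signal, and dashed lines mark 2^0.8-fold; at 2 h Bcl3 and the 3 Nfkbiz probe sets are right of the dashed line, while Rela lies inside its bar.

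Rela encodes p65, the subunit that carries the activation domain of the most common NF-κB dimer. Its single probe set (1419536_a_at) read 700.5 before ISO, 704.7 after 1 h and 753.8 after 2 h. The 3 signals lay close together, with log2 ratios of 0.01 at 1 h and 0.11 at 2 h inside the spread of 0.12 and 0.18 for genes of like signal. Without replicates this bounds no change, and it shows only that none was seen at this size. Rela, Bcl3 and Nfkbiz all had their highest signal at 2 h and their lowest at 0 h, an order found in 17.9% of all read genes.

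Nfkbia encodes IκBα, the inhibitor that is resynthesized within an hour when NF-κB is activated in many cell types. Its brightest probe set (1420088_at) read 955.7 before ISO, 898.3 after 1 h and 876.1 after 2 h. The first array was the highest, but the log2 ratios of -0.09 at 1 h and -0.13 at 2 h lay inside the spreads of 0.12 and 0.19. The other 3 kept probe sets were also below 0 h at both times. Probe set 1438157_s_at had signals of 716.7, 491.4 and 543.4, and 1448306_at had 281.6, 213.5 and 208.4. For these the log2 ratios at 1 h were -0.54 and -0.40, outside the spreads of 0.13 and 0.16. At 2 h they were -0.40 and -0.43, again outside the spreads, of 0.20 and 0.22. Probe set 1449731_s_at had signals of 301.4, 258.3 and 282.4. Its log2 ratio was -0.22 at 1 h, outside the spread of 0.15, and -0.09 at 2 h, inside the spread of 0.27. None of the 4 passed 2^0.8-fold. A signal below 0 h on all kept probe sets was found for 20.2% of the 746 genes with 3 or more kept probe sets at each time. The direction at 1 h depends on the scaling for the brightest probe set, which is at 0.01 with the arrays scaled to the same median, whereas the other 3 stay below 0 h, at -0.45, -0.30 and -0.12. The fifth probe set (1420089_at) had signals between 24.1 and 26.7 and was not kept.

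Nfkb2, which encodes the p100 precursor of p52, and Nfkbib, which encodes IκBβ, stayed below 100 on all 3 arrays. Nfkb2 had signals of 57.1, 61.4 and 69.9 on probe set 1425902_a_at, and of 60.1, 46.2 and 47.6 on 1429128_x_at, whose suffix marks probes that may bind other transcripts. The 2 readings ran in opposite directions, with log2 ratios of 0.29 and -0.34 at 2 h against a spread of 0.34 and 0.39 over all named probe sets of like signal. Nfkbib had signals of 53.9, 49.8 and 56.5 on 1421266_s_at, with no log2 ratio beyond 0.18 in size, and at most 11.3 on 1446718_at. At 69.9, Nfkb2 held the highest signal of these 2 genes, well below the limit of 100. Neither Nfkb2 nor Nfkbib rose past 100, as Bcl3 did from 60.9. A smaller rise or a fall was not detectable at this signal.

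**Figure D3:**
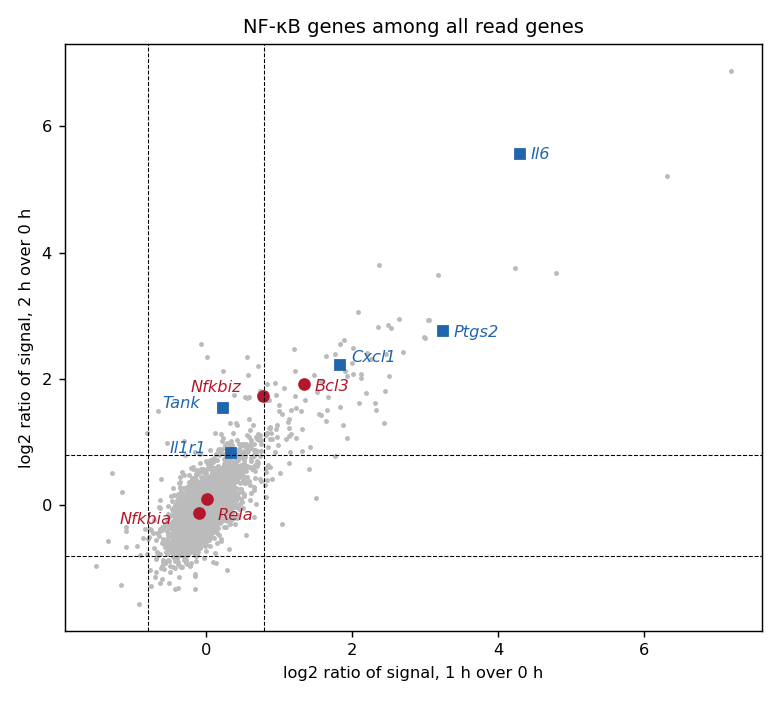
Log2 ratio of signal at 1 h (horizontal axis) and 2 h (vertical axis) of ISO over 0 h for the 6896 read genes (grey, 1 point per gene), with the 4 read members in red and the called genes of the other NF-κB lists in blue. Both axes share the 0 h array and dashed lines mark 2^0.8-fold; Nfkbiz sits at 0.77 and 1.73 and Bcl3 at 1.34 and 1.92, while Rela and Nfkbia lie in the dense centre.

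The read genes with the courses most like those of the called members were found by the distance between pairs of log2 ratios (1 h over 0 h and 2 h over 0 h), over 3 arrays. Nearest to Bcl3 was Pdk4, a kinase that inhibits pyruvate dehydrogenase, at a distance of 0.20, followed by Fgf21, a secreted metabolic factor, at 0.22 and Noct, a clock-regulated gene, at 0.23. Pdk4 was the 1 gene within 0.2 of Bcl3. The place of Bcl3 rests on its dim 0 h signal of 60.9, and with signals below 100 set to 100 its ratios are 0.62 and 1.21. Pdk4, at 620.6 at 0 h, keeps its ratios in that setting, and Fgf21 was itself dim at 0 h, at 43.3. Nearest to Nfkbiz were Clcf1, a cytokine of the IL-6 family, at 0.05, the adaptor gene Shb at 0.06 and the microtubule gene Mtcl1 at 0.07, and 10 genes lay within 0.2. All 3 of these had 0 h signals below 100, between 34.1 and 47.5, where the signal of Nfkbiz was 190.8.

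The remaining NF-κB pathway genes, grouped by role in lists chosen with earlier results of these data known, were mostly level where they could be read. Chuk, Irak4, Ripk1 and Traf3 were among the genes with no named probe set here. Of 7 other Rel and IκB family genes and their binding partners 3 were read, Relb, Nkiras1 and Nkiras2, and none was called, with median log2 ratios of 0.00 at 1 h and 0.04 at 2 h. Relb, the partner of p52, had signals of 111.0, 133.9 and 123.6. Nfkbid, the third nuclear IκB gene, had signals of at most 7.1 and Nfkbie, a classical IκB gene, of at most 65.4. Of 13 listed genes of the IKK complex and its kinases 8 were read and none was called, with medians of 0.09 and -0.13. Of 12 listed coactivators, deacetylases and subunits of protein kinase A 9 were read. None of the 9 was called, with medians of 0.04 and -0.01.

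Of 20 listed receptors and adaptors 7 were read, and the others were too dim or had no named probe set. None of the 7 was called at 1 h, and Il1r1, the signalling receptor of interleukin-1, was called higher at 2 h. Its signals were 131.0, 166.4 and 231.9, and its log2 ratio at 2 h was 0.82, or 0.70, below the threshold, with 32 added to each signal. Of 19 listed regulators of ubiquitin chains and IKK 12 were read. None of the 12 was called at 1 h, and Tank, an adaptor that binds TRAF proteins and the kinase TBK1, was called higher at 2 h. Tank read 209.3 before ISO, 246.6 after 1 h and 609.7 after 2 h. Almost all of its gain came in the second hour, where its log2 ratio was 1.31, and its other probe set had signals of at most 14.4. Tnfaip3, the A20 enzyme that shuts NF-κB signalling off and is itself an NF-κB target, had signals of 78.7, 56.4 and 73.5 and was not read.

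Of 21 classic NF-κB target genes 11 were read, and 3 of the 11 were called higher at both times, with none lower. They were Il6, Ptgs2 (the inducible cyclooxygenase) and the chemokine gene Cxcl1. Over all read genes 1.58% were called higher at 1 h and 2.73% at 2 h. Il6, at 20.7 before ISO, and Ptgs2, at 53.2, were read through their later signals, and dim genes of that kind were called higher in 19.4% and 28.9% of cases. With 100 required on all 3 arrays, Cxcl1 was the 1 target called. With signals below 100 set to 100, their log2 ratios at 2 h were 3.30, 1.85 and 2.22. The list median was 0.24 at 1 h and 0.21 at 2 h. The 8 that were not called included Sod2, a mitochondrial superoxide dismutase, with signals of 1763.2, 1746.0 and 1957.9, and Ccl2, a monocyte chemokine, with 615.1, 932.7 and 651.3. Icam1, Cxcl2 and Tnf had signals of at most 19.8, 12.1 and 9.7. The targets thus did not move together, and 3 called genes stood beside 8 that were not called and 10 that were too dim to read.

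**Figure D4:**
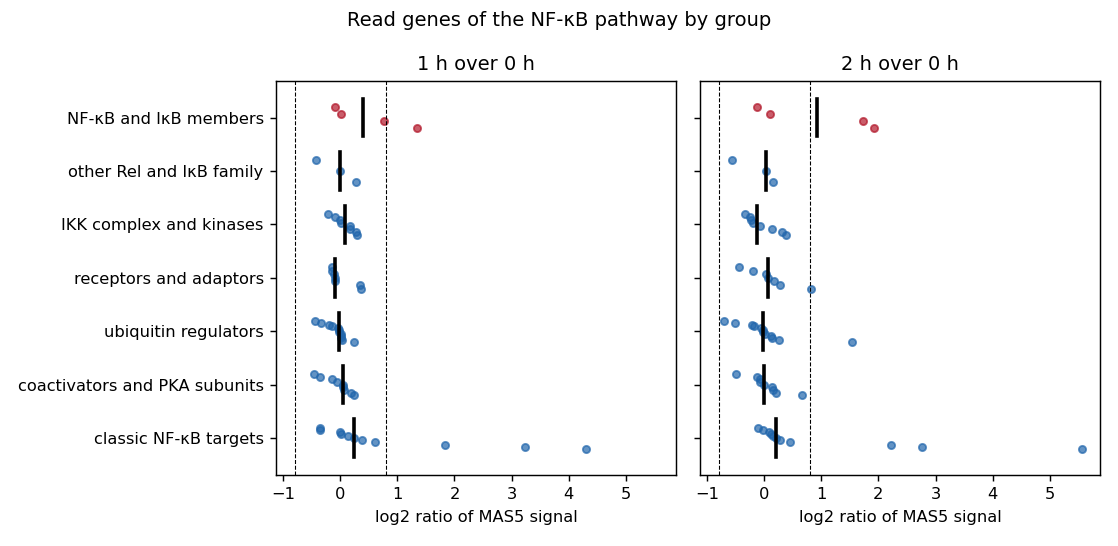
Log2 ratio of MAS5 signal to 0 h (horizontal axis) at 1 h (left) and 2 h (right) for the read genes of each NF-κB list (rows, 1 point per gene, 1 array per time point), with members in red, black bars for medians and dashed lines at 2^0.8-fold. Medians of the 6 other lists lie between -0.13 and 0.24, and the points beyond the dashed lines at 2 h outside the member row are Il6, Ptgs2, Cxcl1, Tank and Il1r1.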

How the data were processed

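Gene expression of iBATs on day 8 was measured at 0, 1 and 2 h of ISO with 1 Affymetrix mouse array each. The authors deposited 1 linear MAS5 intensity per probe set and array, and their filter on absent calls and values below 100 is not applied in the file. The submitters' processing notes name MAS5. The median intensity was 13.6, 12.7 and 13.4, and the number of arrays limits the precision. Of 45101 probe sets, 34958 had 1 gene symbol in the archive's annotation, 932 with several symbols were left out and 9211 carried no name here; 34754 symbols were matched by gene identifier to RefSeq genes (GRCm38.p6) and none changed.

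Log2 ratios were computed in Python 3.11.15 (numpy 2.4.6, pandas 2.3.3), with 0.1 in place of 0. Spreads are the median absolute deviation, scaled to match an SD of normal values, in 20 bins of mean signal. Members and gene lists were chosen with earlier results of these data known. Named genes are all members, called genes of the lists, and the 3 nearest courses to each called member; other genes were picked with their values in view. The calculation was tested on simulated data. The 12 alternatives concern the filter, dim signals, scaling (cyclic loess by limma 3.58.1 in R 4.3.3), the probe set and the threshold. Promoter windows came from RefSeq, without protein sequences, so that planned comparisons of proteins were not made. Figures were drawn with matplotlib 3.10.9.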

Additional observations from a re-analysis of the deposited data

How the results depend on the processing

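Each of the 12 alternatives changed 1 choice. The rise of Nfkbiz at 2 h stayed past 2^0.8-fold under all 11 that leave the threshold as it is, many of which do not touch its value, with log2 ratios from 1.53 to 1.77, and that of Bcl3 under the 10 of these that read it, from 1.21 to 1.99. At 1 h Bcl3 ranged from 0.62 to 1.44 and Nfkbiz from 0.69 to 0.96. No read member was called lower under any alternative. No paired analysis was possible because there is 1 array per time point, and for the same reason no replicate could be left out.

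The number of members called higher at 1 h, 1 as reported, was 0 with 100 required on all 3 arrays, where Bcl3 is not read, and with signals below 100 set to 100. It was 2 with the arrays scaled to the same median and with any kept probe set, where Nfkbiz joined. At 2 h the 2 members were 1 (Nfkbiz) with 100 required on all 3 arrays. For 2 h over 1 h the 1 member was 0 with the median over kept probe sets, where Nfkbiz is at 0.57, and with a threshold of 2-fold.

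The counts over all read genes, 109 higher and 15 lower at 1 h, 188 and 56 at 2 h, and 46 and 22 for 2 h over 1 h, moved more. With 100 required on all 3 arrays they were 56 and 5, 109 and 12, and 15 and 6. With no filter, which lets noise of dim probe sets in, they were 2181 and 2188, 2410 and 2164, and 2273 and 1973. The falls at 1 h and 2 h and the rises and falls for 2 h over 1 h were 9, 22, 27 and 11 with signals below 100 set to 100, 8, 21, 29 and 10 with 32 added, 8, 16, 23 and 11 when 1 signal had to reach 200, and 8, 17, 26 and 10 with a threshold of 2-fold. With any kept probe set the falls at 1 h were 28 and the rises for 2 h over 1 h were 77.

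Of the pathway lists, the classic targets called numbered 1 at each time with 100 required on all 3 arrays (Cxcl1). Without a filter 6 targets were called at 1 h and 7 at 2 h in either direction, as were 2 other Rel and IκB family genes at each time (Rel and Nfkbid), 1 IKK-related kinase (Map3k8) and 2 receptors (Tlr2 and Cd40) at 1 h, and 2 ubiquitin regulators (Tank and Btrc) at 2 h. The call of Il1r1 ended, leaving 0 receptors, with 32 added and with a threshold of 2-fold.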
